A study of Mus musculus with 8 samples.

Results

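The 40 genes described here drive cell division, from the decision to copy DNA through replication to mitosis. They were chosen by name, as known cell cycle and replication genes, and all 40 were found by their mouse symbols among 55450 genes of the deposited expression table. Bone marrow of mice with SS dry eye, where SS is the usual short form of Sjögren's syndrome, in which the immune system damages the tear glands, was used to grow cells labelled as dendritic cells. The cultures then received either PBS, the vehicle, or recombinant S100A8/A9, 2 calcium-binding proteins that neutrophils and monocytes set free at inflamed sites. There were 4 libraries of poly(A) RNA for each treatment, numbered 1 to 4, and the vehicle cultures came from diseased mice too. The dose, the length of treatment, the strain, age and sex of the mice, the culture cytokines and the origin of the replicates are not given in the sources used here, so p-values measure only the spread between these libraries, which may be technical. Values are FPKM, fragments scaled to gene length and library depth, so levels can be compared between genes.

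Division follows a fixed order of gene expression. E2F factors and cyclin E open the way into DNA synthesis, when the MCM helicase, the sliding clamp and nucleotide enzymes are made, and mitotic kinases, cyclins and spindle proteins follow later, under the B-MYB and FOXM1 regulators. In resting cells the RB proteins and the DREAM complex hold these genes down. Bone marrow precursors divide under growth factors and slow as they mature, so low levels of these genes are usual in mature dendritic cells and macrophages. In a bulk sample, fewer dividing cells and less RNA per cell cannot be told apart.

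Replicates 1 to 3 of both groups came from 1 table and replicate 4 of both groups from a second table that was made separately, so tests used replicates 1 to 3 and replicate 4 stands beside them. The first table's libraries held 11180 to 11487 genes at 1 FPKM or more and those of the second 11782 and 11855. The second table implied 31900000 reads for vehicle and 33400000 for S100A8/A9, while the depth of the first could not be recovered from its values. The dendritic cell label was checked against its markers. Itgax lay between 47.2 and 76.4 FPKM and Cd74, a gene of MHC class II presentation, at 1173 FPKM or more. H2-Aa was at 130 FPKM or more and H2-Ab1 at 148 FPKM or more. Ccr7 lay between 141 and 281 FPKM, Irf8 between 29.0 and 51.3 FPKM, Irf4 between 18.2 and 37.6 FPKM and Batf3 between 6.97 and 12.3 FPKM. Zbtb46 was lower, between 2.13 and 3.62 FPKM, and Flt3 stayed at or below 1.0 FPKM. Cd209a, a receptor of monocyte-derived dendritic cells, was at 0 in 7 of 8 libraries. Xcr1 and Clec9a, which mark cross-presenting dendritic cells, stayed at or below 0.362 FPKM. Macrophage markers such as Csf1r, at 109 to 213 FPKM, were present in every library, and the sample titles carry an abbreviation usual for macrophages. Monocyte markers summed to between 374 and 544 FPKM over the 8 libraries, neutrophil markers to between 123 and 260 FPKM and erythroid markers to between 3.17 and 129 FPKM. Neutrophil precursor, stem and progenitor, B cell, T and NK cell and mast cell lists each summed to at most 9.18 FPKM in any library.

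The members were expressed at low levels in replicates 1 to 3, with a median over the 40 genes between 1.25 and 1.40 FPKM in the 6 libraries. Pcna, the clamp that holds DNA polymerase on its template, stood far above the rest. It lies on the reverse strand of chromosome 2 from 132249162 to 132253314 (mm10, ENSMUSG00000027342). Its level was 36.3, 43.5 and 39.1 FPKM in vehicle cultures and 37.2, 45.2 and 42.5 FPKM with S100A8/A9, with means of 39.7 ± 3.62 FPKM and 41.6 ± 4.05 FPKM (SD, n = 3). The next most abundant were the thymidine salvage kinase Tk1, with a mean of 9.07 FPKM over the 6 libraries, and Cdt1, which loads the MCM helicase at origins, with 7.75 FPKM. The 6 MCM helicase subunits ranged from Mcm5 at 1.91 FPKM to Mcm6 at 7.12 FPKM. The lowest was Cenpf, a kinetochore protein of mitotic cells, at 0.138 FPKM. The test took genes that reached 1 FPKM in 3 or more of the 6 libraries, which held for 24 of the 40 members. All 4 G1/S genes passed, as did 9 of 11 origin and fork genes, 3 of 4 nucleotide genes and both chromosome genes, Mki67 and Top2a. Of the 10 mitotic cyclins and kinases 2 passed, Aurka and Aurkb, and of the 9 spindle, kinetochore and exit genes 4 passed.

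**Figure D1:**
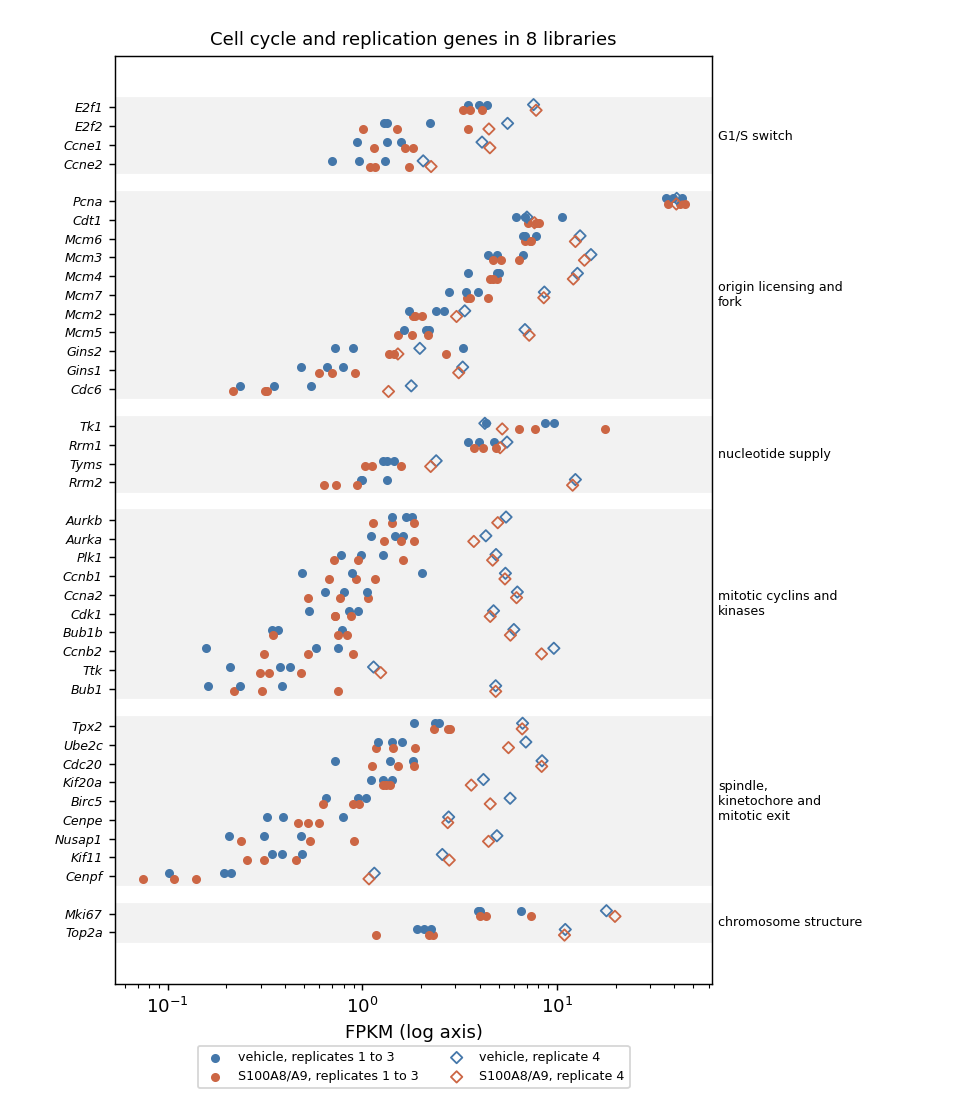
FPKM (log axis) of the 40 members in 8 libraries, ordered by role and mean level. Filled points are replicates 1 to 3 and open diamonds replicate 4, from the separately made table. The vehicle and S100A8/A9 points of a gene overlap in replicates 1 to 3 for 39 of the 40 members, and the replicate 4 points lie to the right of them for 36 of 40.

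The study set treated against vehicle cultures to look for signalling downstream of S100A8/A9. No member passed the test between the 2 treatments. In limma on log2(FPKM + 1) of replicates 1 to 3, 0 of the 24 tested members were called higher and 0 lower, each with an adjusted p of 1.0, and 0 had an unadjusted p under 0.05. Over all 11387 genes tested, 0% were called in either direction by the same fit, and 3.02% had an unadjusted p under 0.05. In the fit blocked on replicate number, 0.501% of all genes were called higher and 0.0176% lower, and again 0 of the 24 members, whose adjusted p-values in limma lay between 0.788 and 0.998. Unadjusted, 7.97% of all genes and 0 of the 24 members were under 0.05 with the block. The median log2 change of the 24 members was 0.064, beside 0.025 over all tested genes. Without vehicle replicate 3 the members' median was -0.013, and 9 of the 24 members then had a change above 0 in place of 17. With no filter 0 of the 40 members were called, and the 16 that had not been tested had limma adjusted p-values from 0.951 to 1.0.

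The size of change that the libraries allow differed between members. The narrowest interval belonged to Mcm6, a helicase subunit, whose log2 change was 0.01 with a 95% interval from -0.22 to 0.24. For Pcna the log2 change was 0.07, with an interval from -0.20 to 0.34. For Mki67, the usual histological marker of dividing cells, it was 0.09, with an interval from -0.47 to 0.65, and it was -0.142 without S100A8/A9 replicate 1. The widest interval was that of Tk1, from -0.54 to 1.29 around a log2 change of 0.38. Adding 1 to each FPKM shrinks these values for genes of low level.

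Among the G1/S genes, both cyclin E genes were higher with S100A8/A9 in every pair. Ccne2 was at 0.700, 0.964 and 1.30 FPKM in vehicle cultures and at 1.16, 1.09 and 1.73 FPKM with S100A8/A9. Replicate 4 gave 2.05 and 2.25 FPKM. The within-pair ratios were therefore 1.66, 1.13, 1.33 and 1.10, but the groups overlapped, since vehicle replicate 3 exceeded 2 of the 3 treated libraries. Ccne1 had ratios of 1.37, 1.05, 1.21 and 1.10, from 1.33, 1.57 and 0.936 FPKM in vehicle cultures and 1.82, 1.65 and 1.14 FPKM with S100A8/A9. Their adjusted p-values in limma with the block were 0.791 for Ccne2 and 0.853 for Ccne1. The transcription factor E2f1 was lower in 2 of 3 pairs, at 3.48, 3.96 and 4.37 FPKM in vehicle cultures and 3.55, 3.27 and 4.13 FPKM with S100A8/A9. In all, 7 of the 24 tested members were higher in all 3 pairs (29.2%), beside 19.4% of all tested genes, and 0 were lower in all 3, beside 9.62%.

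The replication genes had small differences in both directions. Mcm5 was at 2.19, 2.12 and 1.63 FPKM in vehicle cultures and at 1.79, 1.52 and 2.18 FPKM with S100A8/A9, so that the treated library was lower in 2 pairs and higher in the third. Mcm2 had the lowest log2 change of the tested members, -0.16, with an interval from -0.49 to 0.17. It was at 2.61, 2.38 and 1.74 FPKM in vehicle cultures and at 2.01, 1.81 and 1.86 FPKM with S100A8/A9. Cdt1 was at 6.15, 10.6 and 6.86 FPKM in vehicle cultures and at 7.04, 8.08 and 7.80 FPKM with S100A8/A9, where vehicle replicate 2 was the highest of all. The clamp gene Pcna, given above, was higher in all 3 pairs by ratios of 1.02, 1.04 and 1.09, smaller than the spread between replicates of 1 group.

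Of the nucleotide genes, Tk1 had the highest log2 change of the 24 tested members. Its level was 4.32, 8.63 and 9.66 FPKM in vehicle cultures and 7.70, 6.37 and 17.7 FPKM with S100A8/A9, and the ratios were 1.78, 0.738 and 1.84. The means were 7.54 ± 2.83 FPKM and 10.6 ± 6.22 FPKM (SD, n = 3). It was called only when replicate 2, where it was lower, was left out of the blocked fit (limma adjusted p = 0.0248), and without S100A8/A9 replicate 3 its log2 change was -0.031. Tk1 shares 83 exon bases with Afmid on the other strand, and without strand marking such reads cannot be told apart. The same limit holds for Ccne2, which shares 609 of 3495 exon bases with Ints8, and for Mcm7 (557 of 4426, with Cops6 and Ap4m1 among others), Kif20a (1271 of 4338, with Cdc23) and Ube2c (592 of 2600, with Tnnc2). Rrm2, the regulated small subunit of ribonucleotide reductase, was the single member of the 40 whose groups did not overlap, and it is named here after its values were seen. It was at 1.00, 0.977 and 1.33 FPKM in vehicle cultures and at 0.634, 0.732 and 0.932 FPKM with S100A8/A9. In replicate 4 it was at 12.4 FPKM with vehicle, and the treated library stood at a ratio of 0.964 to it. Each treated library lay below every vehicle library of the first table, as was true of 3.47% of genes with a mean between 0.5 and 1.5 FPKM, while 3.25% of them lay above. Among all tested genes 4.71% had groups apart with the treated libraries higher and 1.94% lower, and of the 24 tested members 0. Rrm2 did not pass the filter, and with no filter its limma p was 0.153 before adjustment (log2 change -0.25). Its large-subunit partner Rrm1 had ratios of 1.03, 1.05 and 1.08. Tyms, which makes thymidylate, had ratios of 0.841, 0.804 and 1.08, with a mean of 1.36 ± 0.0953 FPKM for vehicle and 1.24 ± 0.298 FPKM for S100A8/A9 (SD, n = 3).

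Most mitotic genes were low in replicates 1 to 3, and their within-pair ratios varied widely. Cdk1, the kinase that drives entry into mitosis, was at 0.946, 0.851 and 0.532 FPKM in vehicle cultures and at 0.720, 0.876 and 0.726 FPKM with S100A8/A9. Its ratios were 0.761, 1.03 and 1.36. Its partner cyclin Ccnb2 had ratios of 1.20, 0.542 and 3.36 on levels between 0.157 and 0.895 FPKM. Aurkb, the kinase of the chromosomal passenger complex, was at 1.80, 1.41 and 1.68 FPKM in vehicle cultures and at 1.41, 1.83 and 1.13 FPKM with S100A8/A9. Top2a, which untangles chromosomes before they part, was at 2.07, 2.25 and 1.90 FPKM in vehicle cultures and at 2.31, 2.19 and 1.17 FPKM with S100A8/A9. S100A8/A9 replicate 3 was the low library, and the log2 change of -0.11 was 0.083 without it. Its mean was 2.07 ± 0.174 FPKM for vehicle and 1.89 ± 0.626 FPKM for S100A8/A9 (SD, n = 3). Bub1, a spindle checkpoint kinase, and Nusap1, which binds spindle microtubules, were higher in all 3 pairs at levels under 1 FPKM, and neither passed the filter. In replicate 4, where they were at 4.83 and 4.90 FPKM with vehicle, their ratios were 1.00 and 0.906.

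**Figure D2:**
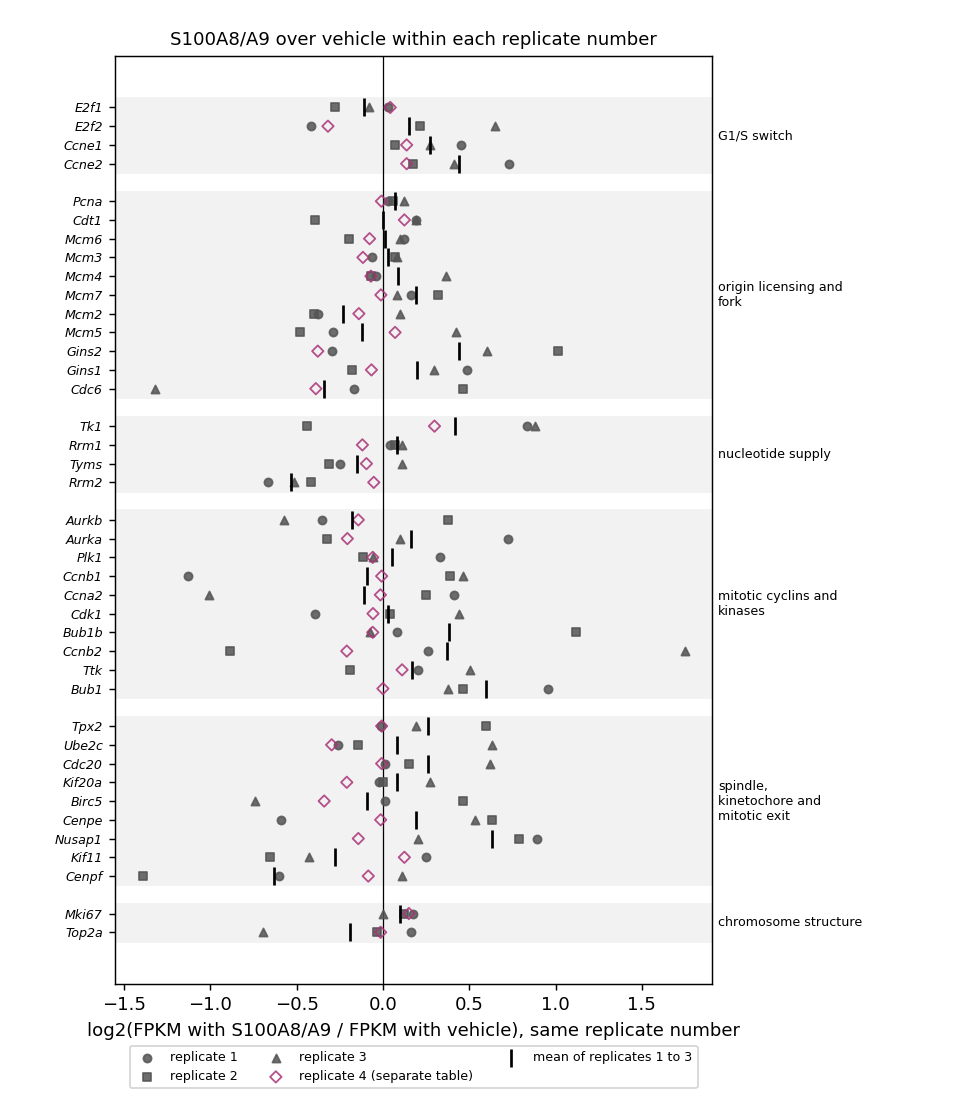
Log2 ratio of FPKM with S100A8/A9 to FPKM with vehicle of the same replicate number, for each of 40 members. Grey points are replicates 1 to 3, open diamonds replicate 4 and black ticks the mean of replicates 1 to 3. The grey points lie on both sides of 0, out to a ratio of 3.36 for Ccnb2, and the diamonds run from 0.764 for Cdc6 to 1.23 for Tk1.

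Replicate 4 gave a second view at higher levels. Its values corresponded to between 158 reads for Gins1 and 6664 for Mki67. The ratio of S100A8/A9 to vehicle was below 1 in 30 of the 40 members, beside 46.5% of all genes compared there. Mki67 was at 17.9 FPKM in the vehicle library and 19.8 FPKM in the treated one, a ratio of 1.11 with an exact binomial (Clopper-Pearson) 95% interval of 1.07 to 1.15. Tk1 had a ratio of 1.23 (1.11 to 1.36), whereas Birc5, the survivin subunit of the passenger complex, had 0.790 (0.702 to 0.890) and Ube2c, which tags mitotic cyclins for destruction, 0.814 (0.720 to 0.921). These intervals cover counting error only, compare 1 library with 1 other, and have no replicate check. They left out 1 for 11 of 40 members, with Mki67 and Tk1 above 1 and the other 9 below. The same held for 18.8% of 17193 genes above 1 and 12.5% below, and for 23.6% above and 14% below among the 9389 genes with 316 to 12392 reads in both libraries together, the members' range. The cyclin E genes had intervals of 0.948 to 1.27 for Ccne1 and 0.915 to 1.31 for Ccne2. For Cdk1 the ratio was 0.961 (0.867 to 1.07) and for Top2a 0.991 (0.943 to 1.04).

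The other genes of the pathway were followed through 6 lists, in each of which 0 tested genes were called with or without the block. In the list of G1 cyclins, CDKs, CDK inhibitors and RB family, 0 of 15 tested genes passed, with a median log2 change of 0.073. Cyclin D2 (Ccnd2), which links growth factor signals to the cell cycle, was at 6.19, 5.30 and 7.96 FPKM in vehicle cultures and at 8.06, 5.79 and 10.3 FPKM with S100A8/A9, higher in each pair (limma adjusted p = 0.462 with the block). Cdkn2b, an inhibitor of CDK4 and CDK6, was also higher in each pair (adjusted p = 0.615 with the block). Of the E2F, DREAM and FOXM1 regulators 0 of 13 passed, with Foxm1 between 0.757 and 1.47 FPKM. Of other replication genes 0 of 29 passed, with a median of 0.002, and of other mitotic genes 0 of 15, with a median of 0.003. Securin (Pttg1), which holds back the separation of sister chromatids, was at 3.31, 1.86 and 1.64 FPKM in vehicle cultures and at 4.20, 2.85 and 2.82 FPKM with S100A8/A9, and its adjusted p was 0.316 with the block. Of the p53 targets and anti-proliferative genes 0 of 12 passed, and of the checkpoint and repair genes 0 of 7.

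Some members differed between replicate numbers. Libraries of the same number deviated together in the 2 groups, so the number was tested with the group as a covariate (limma moderated F test). That joint deviation was read from the same values that the test used. Over all genes 12.7% differed between numbers, and 2 of the 24 tested members did (8.33%). Before adjustment 31.4% of all genes and 29.2% of the members had a p under 0.05, shares close to each other. Mki67 lies on the reverse strand of chromosome 7 from 135689784 to 135716361 (mm10, ENSMUSG00000031004). In replicate 1 it was at 6.50 FPKM without and 7.34 FPKM after S100A8/A9, in replicate 2 at 3.93 and 4.31 FPKM, and in replicate 3 at 4.02 and 4.03 FPKM (adjusted p = 0.0174 in limma). Both replicate 1 libraries thus lay above the other 4. Gins2, a subunit of the active replicative helicase, was at 3.27 and 2.67 FPKM in replicate 1, at 0.721 and 1.46 FPKM in replicate 2 and at 0.896 and 1.37 FPKM in replicate 3 (adjusted p = 0.0446 in limma). Its exons share 2758 of 4097 bases with Gse1 on the other strand, so its values may hold reads of that gene. Without replicate 1, 0 members were called for the number, and without replicate 2, 5 were.

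Some members were highest in replicate 1 and others in replicate 3. Both replicate 1 libraries were above the other 4 in 7 of the 24 tested members (29.2%, beside 13.7% of all tested genes). These were Mcm3, Mcm7, Gins2, Rrm1, Kif20a, Cdc20 and Mki67. Both replicate 3 libraries were above the other 4 in 5 tested members (20.8%, beside 22.3% of all genes), namely Ccne2, E2f1, E2f2, Tyms and Tk1. Mcm3 was at 6.64 and 6.37 FPKM in replicate 1 and between 4.39 and 5.14 FPKM in the others (limma adjusted p = 0.0648). E2f2 was at 2.21 and 3.47 FPKM in replicate 3 and below both in the other 4 libraries (limma adjusted p = 0.0702).

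Cell type markers also differed between the numbers. Macrophage markers, all 10 of which differed between numbers, summed to 1024 and 1073 FPKM in replicate 1, to 716 and 714 FPKM in replicate 2 and to 549 and 593 FPKM in replicate 3. Mast cell and basophil markers summed to 5.43 and 3.58 FPKM in replicate 1 and to between 1.07 and 1.23 FPKM in the others. Stem and progenitor markers summed to 5.54 and 4.09 FPKM against 2.73 to 3.10 FPKM. Of these lists Kit alone was tested, and it was not called for the number (limma adjusted p = 0.933). Myb and Gata2, at 1.66 FPKM or less, were highest in both replicate 1 libraries, while Kit, Cd34 and Hlf were not. Erythroid markers summed to 129 and 115 FPKM in replicate 3 and to between 3.21 and 9.66 FPKM in the others. Globin genes held most of the erythroid sum, while the erythroid regulator Klf1 stayed at or below 0.146 FPKM. Neutrophil markers, of which all 5 tested differed between numbers, summed to 231 and 223 FPKM in replicate 3 and to between 123 and 133 FPKM in the others. Within that list S100a8, 1 of the 2 genes of the treatment protein, ran from 9.72 to 125 FPKM and was highest in replicate 3, while Csf3r and Mmp8 were highest in replicate 1. Of the dendritic cell markers 7 of 9 tested differed between numbers, with a sum of 5466 and 5500 FPKM in replicate 1 against 3647 to 3974 FPKM in the others. Cd74, H2-Ab1 and H2-Aa held most of that sum and, like Itgax, were highest in replicate 1. Within the same list Ccr7, Irf4, Irf8, Batf3 and Zbtb46 were highest in both replicate 3 libraries. The part of these cells in the members' values was not tested.

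**Figure D3:**
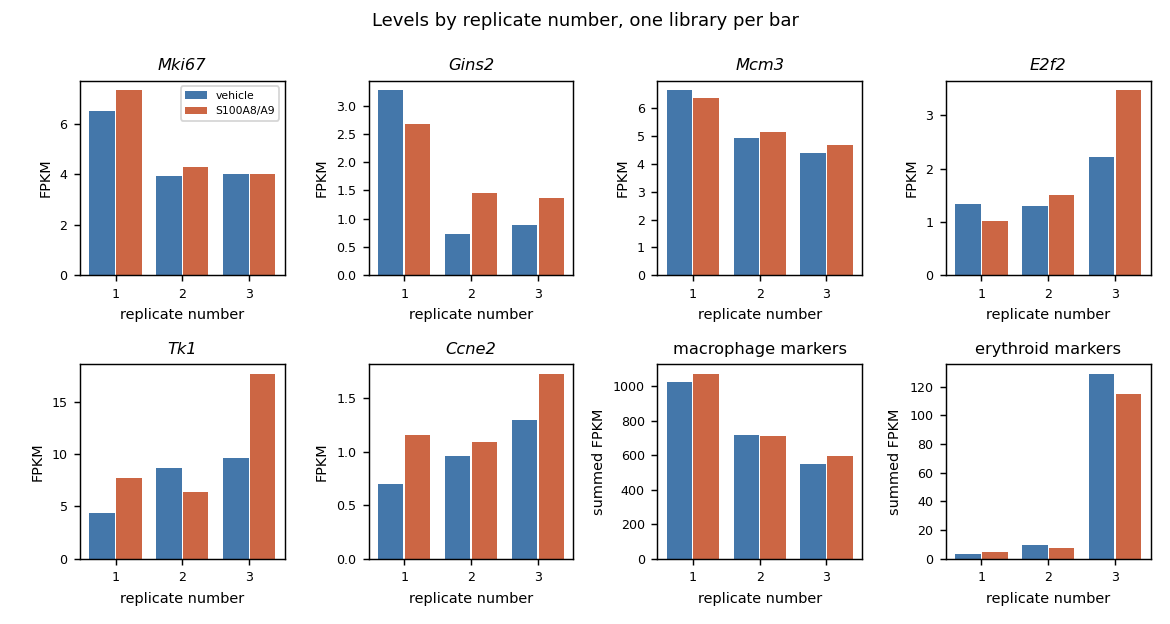
FPKM of 6 members, and summed FPKM of macrophage and erythroid markers, in replicates 1 to 3. Each bar is 1 library, blue for vehicle and orange for S100A8/A9. Mki67, Gins2 and Mcm3 are highest in both replicate 1 libraries, as are the macrophage sum and, not drawn, the dendritic cell sum. The latter is mostly Cd74, H2-Ab1 and H2-Aa. E2f2, Tk1 and Ccne2 are highest in both replicate 3 libraries, as are the erythroid sum and, not drawn, the neutrophil sum.

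Replicate 4 differed from the other replicates across these genes. Over the 40 members the mean of the 2 replicate 4 libraries was a median 3.53 times that of the 6 other libraries, beside 1.08 times over 17193 genes of both tables with a mean of at least 0.1 FPKM in replicates 1 to 3. It was at least 3-fold higher in 24 of 40 members (60.0%), beside 8.35% of those genes. Among members with a mean under 2 FPKM in replicates 1 to 3 it was 23 of 28, beside 14.4% of genes at that level. Both replicate 4 libraries lay above all 6 others in 36 members, beside 33.2% of genes, and the 4 exceptions were Cdt1, Gins2, Pcna and Tk1. The tables were made separately and the labels give 1 number to each pair, so a difference between cultures and a difference in processing cannot be told apart, and no test was made.

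The ratio differed by role, and so did the level in replicates 1 to 3, which is its denominator. The filter on that level passed 2 of 10 mitotic cyclins and kinases but 9 of 11 origin and fork genes. Role and level were not separated. Mitotic cyclins and kinases had a median ratio of 5.62 and 9 of 10 were at least 3-fold higher. Spindle, kinetochore and exit genes had a median of 5.97, with 8 of 9. The G1/S genes had a median of 2.40, with 1 of 4, and the origin and fork genes 2.38, with 3 of 11. Of the 4 nucleotide genes Rrm2 alone reached 3-fold, and both chromosome genes did, Top2a at 5.51 and Mki67 at 3.75. Ccnb2 was the extreme: 9.61 and 8.31 FPKM in replicate 4 against 0.157 to 0.895 FPKM in the other 6, a ratio of 16.7. It lies on the reverse strand of chromosome 9 from 70407692 to 70421547 (mm10, ENSMUSG00000032218). Bub1 followed with a ratio of 14.1, Rrm2 with 13.1, Nusap1 with 10.4 and Bub1b, the checkpoint protein BubR1, with 10.3. Cdk1 was at 4.71 and 4.53 FPKM in replicate 4, Top2a at 11.0 and 10.9 FPKM and Mcm5 at 6.83 and 7.18 FPKM.

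At the other end, Pcna was at 41.1 and 40.9 FPKM in replicate 4, a ratio of 1.01. Cdt1 had a ratio of 0.943 and Rrm1 1.28. Tk1 was at 4.25 and 5.22 FPKM, with a ratio of 0.522, the lowest of the 40. Markers differed between the tables in both directions. The dendritic cell list had a median replicate 4 ratio of 1.20. Its ratios included Itgax at 1.40, Ccr7 at 1.62, Irf4 at 1.64, Irf8 at 0.814 and Zbtb46 at 0.881. Its 3 genes of MHC class II presentation were lower, with Cd74 at 0.39, H2-Ab1 at 0.322 and H2-Aa at 0.24, and being abundant they took the list's sum to 1956 and 1894 FPKM in replicate 4, against 3647 FPKM or more in each of the other 6 libraries. The macrophage sum, at 1101 and 1138 FPKM, was above all 6. The sum for mast cells and basophils was 6.50 and 5.35 FPKM in replicate 4, and that for stem and progenitor cells was 1.85 and 1.88 FPKM, lower than elsewhere. The part of these cells in the contrast was not tested. Among the other lists, other mitotic genes had a median ratio of 3.20, checkpoint and repair genes 1.96, other replication genes 1.71, p53 targets and anti-proliferative genes 1.67, E2F, DREAM and FOXM1 regulators 1.42, and G1 cyclins, CDKs and their inhibitors 0.912. In that last list the CDK inhibitors Cdkn2d, Cdkn2c and Cdkn1b had ratios of 5.11, 4.09 and 2.88. Its other CDK inhibitors had lower ratios, with Cdkn2a at 0.86, Cdkn1a at 0.798, Cdkn1c at 0.757 and Cdkn2b at 0.729. Their libraries were not all lower in replicate 4. Cdkn2a, at 6.56 and 7.05 FPKM there, lay above replicates 1 and 2 and below replicate 3, at 11.9 and 15.4 FPKM. Cdkn2b, at 6.75 and 8.21 FPKM, lay above replicate 1, at 5.29 and 5.89 FPKM. Cdkn1a was at 45.2 and 46.5 FPKM, against 45.9 to 55.1 FPKM in replicates 1 and 2. Cdkn1c was at most 0.65 FPKM in any library. Among the anti-proliferative genes Btg2 had 6.02 and Btg1 3.24. Apart from Cdkn2b and Btg1 these were named after their values were seen.

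**Figure D4:**
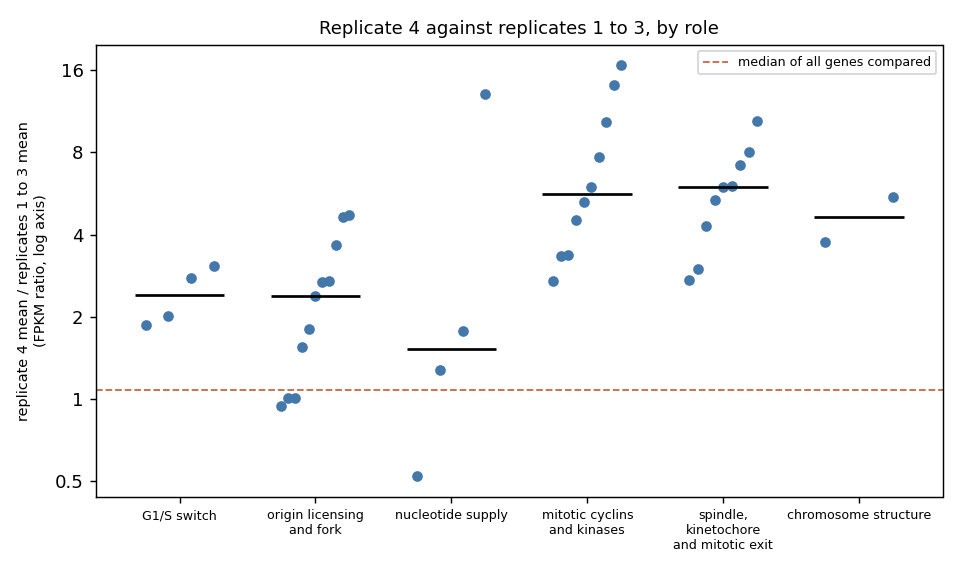
Ratio of the mean FPKM of the 2 replicate 4 libraries to the mean of the 6 libraries of replicates 1 to 3 (log axis), 1 point per member, by role. Black lines are role medians and the dashed line the median of 1.08 over all genes compared. Medians of the mitotic and spindle roles, 5.62 and 5.97, lie above those of the G1/S and replication roles, 2.40 and 2.38. The roles also differ in their level in replicates 1 to 3.

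Promoters of members with high and low ratios are shown so that their sequences can be compared. They are the 250 bases before the start of transcription from RefSeq on GRCm38.p6, for the 2 highest and 2 lowest ratios among the 15 members with 1 promoter free of annotated exons, and for Mki67. Capitals mark motifs found by a search of both strands for CCAAT, the NF-Y site, for TTTGAA and TTCGAA, the forms of the cell cycle homology region bound by DREAM, and for the E2F-like words TTTGGCG and also TTCCCGC, together with the longer GGCGGGAA. A CCAAT on the other strand reads ATTGG here, and TTCCCGC overlaps the reverse complement of GGCGGGAA.
Ccnb2 (chr9:70421555-70421804, reverse strand): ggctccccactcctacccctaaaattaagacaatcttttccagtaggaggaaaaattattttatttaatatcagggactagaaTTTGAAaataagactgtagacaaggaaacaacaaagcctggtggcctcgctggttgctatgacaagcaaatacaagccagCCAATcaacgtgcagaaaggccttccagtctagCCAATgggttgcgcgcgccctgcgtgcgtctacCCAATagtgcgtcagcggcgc
Bub1b (chr2:118597961-118598210, forward strand): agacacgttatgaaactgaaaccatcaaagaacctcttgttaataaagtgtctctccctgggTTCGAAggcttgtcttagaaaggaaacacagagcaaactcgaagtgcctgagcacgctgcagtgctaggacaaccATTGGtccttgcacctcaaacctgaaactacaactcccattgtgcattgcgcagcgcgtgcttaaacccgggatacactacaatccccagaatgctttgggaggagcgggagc
Mki67 (chr7:135716380-135716629, reverse strand): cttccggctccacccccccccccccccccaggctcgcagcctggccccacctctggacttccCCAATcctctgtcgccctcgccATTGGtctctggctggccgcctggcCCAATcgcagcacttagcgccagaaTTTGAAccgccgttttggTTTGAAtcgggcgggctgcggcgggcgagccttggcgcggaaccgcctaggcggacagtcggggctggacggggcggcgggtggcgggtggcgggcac
Rrm1 (chr7:102441445-102441694, forward strand): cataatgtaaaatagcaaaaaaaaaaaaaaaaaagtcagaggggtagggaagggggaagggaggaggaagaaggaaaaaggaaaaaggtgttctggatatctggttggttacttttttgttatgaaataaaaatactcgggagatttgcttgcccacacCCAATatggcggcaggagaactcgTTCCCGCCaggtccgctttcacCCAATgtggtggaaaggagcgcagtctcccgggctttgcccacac
Cdt1 (chr8:122567765-122568014, forward strand): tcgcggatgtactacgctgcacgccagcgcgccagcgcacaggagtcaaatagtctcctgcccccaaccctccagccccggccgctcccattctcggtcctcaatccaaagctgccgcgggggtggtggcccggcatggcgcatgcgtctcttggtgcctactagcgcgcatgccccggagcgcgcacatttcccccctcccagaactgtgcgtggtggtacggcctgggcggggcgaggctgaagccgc

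In the Ccnb2 window CCAAT began 87, 54 and 21 bases before the start, and TTTGAA began 167 bases before it. The Mki67 window held 3 CCAAT and 2 TTTGAA matches, and that of Bub1b 1 CCAAT and 1 TTCGAA. Rrm1 held 2 CCAAT matches and, 67 bases before the start, a TTCCCGC inside a match to the reverse complement of GGCGGGAA, while the Cdt1 window held none of the 6 motifs. RefSeq promoters were at hand for 32 of the 40 members, as 34 windows. CCAAT was in 15 of 17 windows of mitotic and chromosome members (88.2%) and in 11 of 17 windows of the G1/S, replication and nucleotide members (64.7%), beside 33.8% of all 32851 promoters of that length. CCAAT together with TTTGAA or TTCGAA was in 8 of 17 windows of mitotic and chromosome members (47.1%). It was in 3 of 17 windows of the earlier members (17.6%), beside 6.02% of all promoters. Any of the 3 E2F-like motifs was in 0 of 17 windows of the first set and in 6 of 17 of the second (35.3%), beside 4.94%. These are matches of letters and say nothing of binding in these cultures.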

How the data were processed

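RNA from 8 libraries was measured as FPKM per Ensembl gene. The values are the authors' deposited FPKM. No header or label names that unit, which was read from the values themselves. HISAT2, Subread, featureCounts, DESeq2 1.34.0 and the mm10 build appear in the submitters' processing notes, with no roles given. The values of the series table and of the sample tables were identical. In replicate 4, 98.55% and 98.77% of values worth up to 20 reads were whole reads within 0.01, given GENCODE exon lengths, and in replicates 1 to 3 at most 6.17% were.

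The members and lists were chosen with earlier results of these data known. The test was limma-trend 3.58.1 in R 4.3.3 on log2(FPKM + 1), two-sided, Benjamini-Hochberg adjusted over 11387 genes with at least 1 FPKM in 3 of the 6 libraries of replicates 1 to 3, called under 0.05. A check on simulated data made 5 runs with 3-fold changes. That check cannot tell how often smaller changes, such as those of the tested members, would be found. It also gives no rate of detection at the low levels of most members. Deviations from group means correlated at 0.59, 0.25 and 0.52 between libraries of the same number and from -0.53 to -0.01 between others. Same-numbered libraries were therefore treated as pairs, which the labels do not state. Deviations cancel out within a group, so the negative values follow in part from the positive ones. The pairing was read from the same values that the fits used. The rule for named members took 5 fixed ones, the 4 of highest and 4 of lowest mean within-pair ratio with at least 1 FPKM, the 3 of highest mean, those called in any fit and the 3 of smallest p for the replicate number. Up to 2 genes per other list are named by smallest p with the block. Other members are named for their rank or range, after their values were seen. Alternatives were the block, another pseudocount, other filters and scalings, all 8 libraries and leaving out libraries.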

Additional observations from a re-analysis of the deposited data

Results flagged for a closer look

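In 10 of 30 groups of 4 libraries looked at (15 members in each treatment group), 1 library stood apart by its gap to the next as a share of the range. Chance flags about 1 in 20 such groups when they are not chosen by their values. Most of the members looked at were named from these same values, so that rate does not apply here. Replicate 4 also comes from the separately made table. Replicate 4 was the high library for Top2a (11.0 FPKM with vehicle, 10.9 with S100A8/A9), Cdk1 (4.71 and 4.53) and Mcm5 (6.83 and 7.18). It was also high for Aurkb (5.46 FPKM) and Tyms (2.39) with vehicle and for Mcm2 (3.04) with S100A8/A9. Gins2 was high in S100A8/A9 replicate 1 (2.67 FPKM).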

How the results depend on the processing

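Between treatments, 0 genes were called without the replicate block and 59 with it. With the block the count was 3 with median-of-ratios factors, 3 with upper-quartile factors, 3 with quantile normalization and 39 at a common sum, and it was 42, 95 and 5 without replicates 1, 2 and 3. In all 8 libraries together it was 0 of 11180 genes with the block (901 at an unadjusted p under 0.05, limma) and 0 with a table term. Without the block, leaving out single libraries gave 0 to 1 genes. The block changed no member's call: 0 members were called in every alternative but 1, the block without replicate 2, which called 1 (Tk1, log2 change 0.76). The members' median log2 change, 0.064, ran from -0.013 to 0.067 without single libraries. The replicate number was called for 1450 genes, for 18 with no filter, and for 314 to 1833 without 1 number. Of the members, it was called for 2, for 1 with a pseudocount of 0.1, for 0 with no filter, for 1 with a mean of at least 5 FPKM (where 6 were tested), and for 0 to 5 without 1 number.

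Of 14 named members with a log2 change, 9 changed sign in some alternative, and Pcna, Ccne1, Ccne2, Mcm2 and Tyms did not in those run. Without single libraries the log2 change ran from -0.142 to 0.28 for Mki67, from -0.22 to 0.083 for Top2a, from -0.16 to 0.004 for Mcm5, from -0.031 to 0.64 for Tk1, from -0.038 to 0.62 for Gins2, from -0.15 to 0.203 for Cdt1, from -0.207 to 0.37 for E2f2 and from -0.084 to 0.17 for Mcm3. With the block and without replicate 2 it was 0.040 for Mcm5 and 0.166 for Cdt1, and with the block and without replicate 3 it was 0.043 for Top2a, 0.007 for Aurkb and -0.050 for E2f2. With all 8 libraries, with a table term or with the replicate block, it was 0.023 for Cdt1 and -0.009 for Mcm3. With quantile normalization it was -0.003 for Mcm3, with and without the block. The cause of these changes was not tested.

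With scalings chosen after seeing the data, 22 members were at least 3-fold higher in replicate 4 with median-of-ratios factors (beside 7.05% of genes) and 20 at a common sum (beside 5.77%). Low levels limit the mitotic members in replicates 1 to 3, where 16 of the 40 members were not tested.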
